A study of Mus musculus with 8 samples.

Results

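The 8 genes described here are known from the neural crest and from the first steps of the Schwann cell lineage that arises from it. They were taken by symbol from the 26263 genes of the count tables, and all 8 were found and passed the filter on low counts that left 16399 genes for testing. They comprise 6 transcription factors, *Tfap2a*, *Tfap2b*, *Pax3*, *Foxd3*, *Ets1* and *Sox10*, and 2 receptors, *Erbb3* and *Ngfr*. Polyadenylated RNA had been sequenced from hybrid mouse ESCs and from the NPCs made from them, in a study of imprinted expression during neural commitment. The B/J line (BJE2) came from a C57BL/6 mother and a JF1 father and the J/B line (JBE6) from the opposite cross. Both lines were male, and each genotype was represented by a single ESC line. ESCs had been kept with LIF, BMP4 and an inhibitor of GSK3-β, and NPCs were collected at day 12 of *in vitro* corticogenesis, a culture on Matrigel with B27 and dorsomorphin homolog 1. Each of the 4 groups (ESC B/J, ESC J/B, NPC B/J and NPC J/B) had 2 libraries, so each stage had 4. The sources used here do not say whether the 2 replicates of a group came from separate cultures, and p-values then measure only the spread between these libraries, which may be technical.

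The neural crest is a transient population of the vertebrate embryo that forms at the border between neural plate and surface ectoderm, leaves the dorsal neural tube and gives rise to peripheral neurons, Schwann cells, melanocytes and much of the facial skeleton. Border cells use the AP-2 factors Tfap2a and Tfap2b and the paired-box factor Pax3, and the cells that become crest then use Foxd3, Ets1 and Sox10. Crest cells that settle along nerves keep Sox10 and depend on Erbb3, which receives neuregulin from axons, and they carry the low-affinity neurotrophin receptor Ngfr. None of these genes belongs to the crest alone. Foxd3 also acts in pluripotent cells, Tfap2a in surface ectoderm and trophoblast, Pax3 in the dorsal neural tube and the dermomyotome, Ets1 in endothelium and mesenchyme, Erbb3 in epithelia and Ngfr in many neural and mesenchymal cells.

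Counts assigned to genes ranged from 22537138 to 32706015 per library, and levels are given as CPM, the counts of a gene scaled to the library total, on which 1 count was worth 0.0306 to 0.0444 CPM. The stage labels were checked on marker lists. All 8 pluripotency genes fell, and of 8 neural precursor genes 6 rose, *Sox2* fell and *Pax6* (named after its values were seen) did not pass the test. The NPC libraries also held markers of other cell types. The 10 trophoblast genes summed to 61.9 to 145 CPM in ESCs and 413 to 1123 CPM in NPCs, the 8 surface ectoderm genes to 64.2 to 197 and 1108 to 2744 CPM, the 10 endothelial and blood genes to 34.9 to 94.9 and 475 to 1185 CPM, and the 10 fibroblast genes to 10.3 to 75.3 and 900.3 to 2193 CPM. A pair of libraries stood apart. ESC J/B replicate 1 had a fibroblast sum of 75.3 CPM against 10.3 to 12.7 CPM in the other ESC libraries, and NPC B/J replicate 1 had a neural precursor sum of 727 CPM against 1479 to 1920.2 CPM in the other NPC libraries.

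Between ESCs and NPCs, *Tfap2a*, *Tfap2b*, *Pax3* and *Ets1* rose, *Foxd3* fell, and *Sox10*, *Erbb3* and *Ngfr* did not pass the test over both crosses. These 5 of 8 genes, 4 higher and 1 lower, stand beside 69.4% of all genes tested that passed in either direction (edgeR quasi-likelihood test, Benjamini-Hochberg adjusted p below 0.05), 37.5% higher and 31.9% lower, so the share of genes called was not above the background. The same 5 genes had no overlap between the 4 ESC and the 4 NPC libraries on CPM, 4 above and 1 below, as did 67.1% of all genes tested, 46.7% above and 20.5% below. The median log2 fold change of the 8 genes was 2.19, beside 0.17 for all genes tested. Scaled to library totals the median of all genes was 0.65, and scaled to *Gapdh*, *Gusb* and *Tbp*, the reference genes of the study's RT-qPCR, it was 0.80, so small changes have to be read against a shift of that size. In these bulk libraries, fewer cells expressing a gene and less RNA per cell cannot be told apart.

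**Figure D1:**
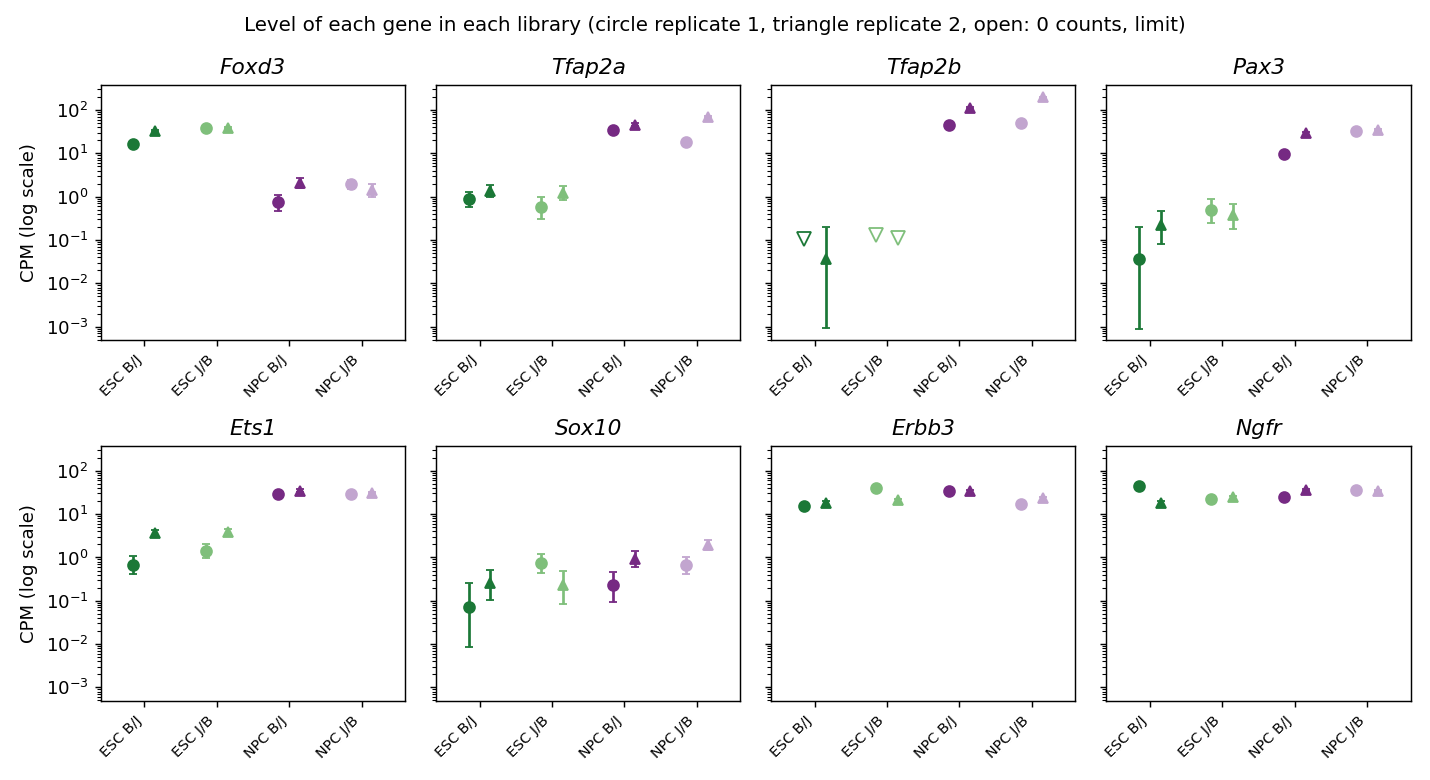
Level of each of the 8 genes in each library, in CPM on a log scale, with the 4 groups along the x axis, circles for replicate 1, triangles for replicate 2, bars for exact 95% Poisson intervals (counting error only) and open symbols for 0 counts drawn at the limit of 3 counts. *Foxd3* lies at 16.5 to 38.7 CPM in ESCs and 0.747 to 2.07 CPM in NPCs, *Tfap2a*, *Tfap2b*, *Pax3* and *Ets1* lie higher in every NPC library than in any ESC library, and *Sox10*, *Erbb3* and *Ngfr* overlap between the stages.

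The promoters of the genes with the largest changes are printed here because 3 of them, *Tfap2a*, *Tfap2b* and *Pax3*, rose together while *Foxd3* fell. Each is the stretch of 250 bases before the start of the gene's canonical transcript (GENCODE vM39 on GRCm39, the build used for the deposited counts), 5′ to 3′ on the gene's strand. Capitals mark every match, on either strand, to 4 motifs: GCCNNNGGC, a palindromic core bound by AP-2 factors, ACAAAG, bound by SOX factors, TATAAA, the TATA box, and CCAAT. On the opposite strand TATAAA reads TTTATA and CCAAT reads ATTGG.
*Tfap2a* promoter, chr13:40887452-40887701, minus strand: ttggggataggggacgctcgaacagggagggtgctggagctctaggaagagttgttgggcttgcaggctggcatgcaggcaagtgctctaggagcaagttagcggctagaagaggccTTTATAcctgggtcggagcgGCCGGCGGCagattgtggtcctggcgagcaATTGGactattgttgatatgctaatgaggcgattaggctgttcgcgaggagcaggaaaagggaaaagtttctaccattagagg
*Tfap2b* promoter, chr1:19278888-19279137, plus strand: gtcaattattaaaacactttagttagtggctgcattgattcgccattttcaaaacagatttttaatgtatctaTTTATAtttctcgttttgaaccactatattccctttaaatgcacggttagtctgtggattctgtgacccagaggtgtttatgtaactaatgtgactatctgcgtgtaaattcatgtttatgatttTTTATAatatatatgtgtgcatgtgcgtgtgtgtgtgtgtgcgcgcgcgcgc
*Pax3* promoter, chr1:78173772-78174021, minus strand: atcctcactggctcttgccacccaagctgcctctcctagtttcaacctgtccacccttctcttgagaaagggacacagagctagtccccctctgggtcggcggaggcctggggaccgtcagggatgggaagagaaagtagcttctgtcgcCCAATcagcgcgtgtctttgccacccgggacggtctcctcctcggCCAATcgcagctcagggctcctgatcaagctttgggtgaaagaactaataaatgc
*Foxd3* promoter, chr4:99544286-99544535, plus strand: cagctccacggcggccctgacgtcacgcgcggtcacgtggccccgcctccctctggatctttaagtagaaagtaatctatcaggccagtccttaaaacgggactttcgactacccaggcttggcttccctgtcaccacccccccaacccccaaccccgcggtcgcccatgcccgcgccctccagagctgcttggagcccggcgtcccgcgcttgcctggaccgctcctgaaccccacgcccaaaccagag
The *Tfap2a* promoter held 1 AP-2 core beginning 113 bases before the start, 1 TATA motif at 133 bases and 1 CCAAT motif at 83 bases. The *Tfap2b* promoter held 2 TATA motifs, at 177 and 52 bases, and ended in a run of alternating T, G and C. The *Pax3* promoter held 2 CCAAT motifs, at 100 and 55 bases. No match to these letters lay in the *Foxd3* window, nor in those of *Sox10*, *Erbb3* and *Ngfr*, and *Ets1* had 1 CCAAT motif at 81 bases. No marked matches overlapped. Of 21751 promoters of the same length, 13.2% held the AP-2 core, 15.9% ACAAAG, 11.9% TATAAA and 36.5% CCAAT. GC content was 36% in the *Tfap2b* window, 54.8% in that of *Tfap2a*, 57.6% in that of *Pax3* and 65.6% in that of *Foxd3*, against a median of 53.2% over all promoters.

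*Tfap2a* encodes the AP-2α factor, which acts at the neural plate border and in the epidermis. Its gene lies on the minus strand at chr13:40868778-40891852. In ESCs it measured 0.890 and 1.39 CPM in the B/J libraries and 0.577 and 1.24 CPM in the J/B libraries. In NPCs it measured 34.2 and 46.4 CPM in B/J and 18.1 and 68.1 CPM in J/B. Every NPC library lay above every ESC library, and the widest gap within a group was the one between the J/B NPC libraries, which enclosed both B/J values. *Tfap2a* rose 29.2-fold (log2 fold change 4.87, SE 0.500, adjusted p = 1.09e-04 by edgeR's quasi-likelihood test), by 4.67 within B/J and 5.07 within J/B. An antisense gene that overlaps it, *Gm26688*, named after its values were seen, had 0 counts in the 4 ESC libraries and 15, 23, 21 and 34 counts in the NPC libraries. The sources used here do not say whether the counting used strand, and without strand the reads of such a pair cannot be told apart. With 592 to 1746 counts of *Tfap2a* per NPC library, the antisense gene's counts were small beside them.

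*Tfap2b*, on the plus strand at chr1:19279138-19309069, encodes the related AP-2β, which is needed in crest-derived and kidney tissue. It was all but undetected in ESCs, with 1 count in B/J replicate 2 and 0 counts in the other 3 libraries, where 3 counts, the limit that a count of 0 allows, correspond to 0.107 to 0.133 CPM. In NPCs it measured 46.2 and 112 CPM in B/J and 51.3 and 199.9 CPM in J/B. In both crosses replicate 2 of the NPCs held the higher level. The NPC-to-ESC ratio of summed counts, scaled to library totals, was 10117, with a counting interval of 1815 to 399638 that rests on the single ESC count, and 7271 (1305 to 287214) with TMM factors. Without that ESC library the 0 counts left give a ratio of at least 2488. The test across all genes called the change (adjusted p = 6.87e-05, edgeR quasi-likelihood), and it was called within each cross, where the ratio on library totals was 4254 (763 to 168058) in B/J and at least 1906 in J/B.

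The remaining AP-2 genes give context, 3 in number, of which *Tfap2d* and *Tfap2e* were added after their values were seen. *Tfap2c*, the AP-2γ gene of trophoblast and germ cells, measured 32.8 to 112 CPM in ESCs and 123 to 386 CPM in NPCs. Its groups did not overlap on CPM, and the test did not call it (log2 fold change 0.90, SE 0.36, adjusted p = 0.0520, edgeR quasi-likelihood), although 9 of 18 alternative settings did. *Tfap2d* had 4 to 11 counts in ESC libraries and 15 to 131 counts in NPC libraries, and *Tfap2e* had 6 to 30 and 21 to 54 counts. *Tfap2a*, *Tfap2b* and *Tfap2c* were thus the AP-2 genes with the higher levels in NPCs.

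*Pax3*, on the minus strand at chr1:78077904-78173771, encodes a paired-box factor of the dorsal neural tube, the neural crest and the dermomyotome. The ESC libraries held 1 and 6 counts in B/J and 11 and 10 counts in J/B, or 0.0356, 0.219, 0.488 and 0.377 CPM. The NPC libraries measured 9.83 and 29.3 CPM in B/J and 32.1 and 34.3 CPM in J/B. B/J replicate 1 was the lowest of the NPC libraries and the other 3 lay close together. *Pax3* rose 76.7-fold (log2 fold change 6.26, SE 0.540, adjusted p = 5.47e-05, edgeR quasi-likelihood), by 6.76 within B/J and 5.77 within J/B. Of all genes tested, 4.81% rose by more, compared with 8.15% for *Tfap2a*.

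The factors of the next step did not move as a group. *Foxd3*, on the plus strand at chr4:99544536-99546859, has a single exon and encodes a forkhead repressor used by pluripotent cells and by early crest cells. It measured 16.5 and 32.9 CPM in B/J ESCs and 38.7 and 38.5 CPM in J/B ESCs. In NPCs it measured 0.747 and 2.07 CPM in B/J and 1.93 and 1.41 CPM in J/B, that is 23 to 63 counts per library. The stages did not overlap, and the ESC mean of 31.7 ± 10.5 CPM (SD, n = 4) stood against 1.54 ± 0.599 CPM in NPCs (SD, n = 4). *Foxd3* fell 28.1-fold (log2 fold change -4.81, SE 0.390, adjusted p = 4.40e-05, edgeR quasi-likelihood), by -4.61 within B/J and -5.01 within J/B. It was the only gene of the 8 called lower over both crosses, and 1.35% of all genes tested fell by more.

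*Ets1*, on the plus strand at chr9:32547517-32669116, encodes an ETS-domain activator of cranial crest, endothelium and lymphoid cells. In ESCs it measured 0.676 and 3.61 CPM in B/J and 1.42 and 3.81 CPM in J/B. In NPCs it measured 29.2 and 34.8 CPM in B/J and 29.7 and 30.7 CPM in J/B. The NPC libraries were nearly level, at 31.1 ± 2.56 CPM (SD, n = 4), whereas in ESCs replicate 2 lay above replicate 1 in both crosses. *Ets1* rose 9.50-fold (log2 fold change 3.25, SE 0.513, adjusted p = 8.83e-04, edgeR quasi-likelihood), by 3.44 within B/J and 3.05 within J/B. Of 10 endothelial and blood genes 8 were tested, with 4 higher and 2 lower, beside 69.4% of all genes called. The lower count was 1 under 10 of 18 settings, among them the fits without ESC B/J replicate 1, without ESC J/B replicate 1 and without any 1 of the NPC libraries. *Pecam1*, an adhesion molecule of endothelium that these ESC libraries also held, fell by 2.35, from 29.6 to 84.8 CPM to 7.81 to 26.3 CPM in NPCs. *Cdh5*, the VE-cadherin gene, was at 0.0356 to 0.266 CPM in ESCs and 254 to 880 CPM in NPCs. The haemoglobin gene *Hbb-bs* had 0 counts in all 8 libraries. The part of these cells in the *Ets1* change was not tested.

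*Sox10*, on the minus strand at chr15:79039108-79049469, encodes the HMG-box factor that defines migrating crest and its glial and melanocyte descendants. It was low in every library, with at most 50 counts. The ESC libraries held 2 and 7 counts in B/J and 17 and 6 counts in J/B, and the NPC libraries 7 and 25 counts in B/J and 22 and 50 counts in J/B. In CPM these were 0.0712, 0.255, 0.754 and 0.226 in ESCs and 0.227, 0.941, 0.673 and 1.95 in NPCs. The stages overlapped, since ESC J/B replicate 1 lay above NPC B/J replicate 1 and NPC J/B replicate 1. The log2 fold change of 1.13 (SE 0.760, 95% interval -0.64 to 2.89, adjusted p = 0.216, edgeR quasi-likelihood) did not pass the test, and an increase of several fold lies within its interval. Without ESC J/B replicate 1, the ESC library with the highest fibroblast sum, the change was 1.70 with an adjusted p of 0.121, whereas leaving out NPC B/J replicate 2 gave 0.47 with an adjusted p of 0.650.

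**Figure D2:**
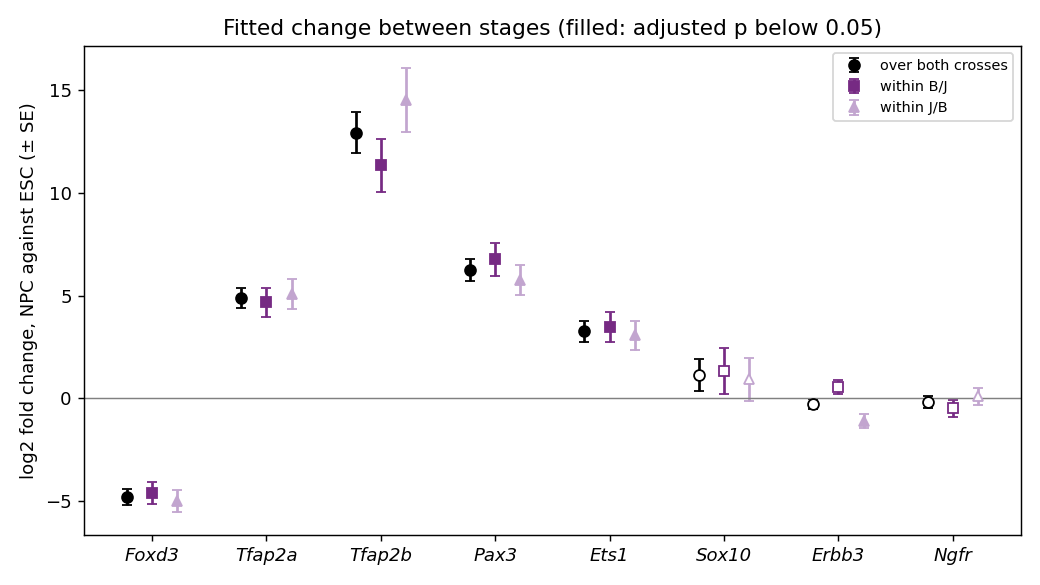
Fitted log2 fold change of NPCs against ESCs for each of the 8 genes, over both crosses and within each cross, with bars for SE and filled symbols for an adjusted p below 0.05. *Foxd3* sits near -5, 4 genes sit between 3 and 15 (the *Tfap2b* values depend on the prior count, since its ESC counts were 0 or 1), and the small changes of *Erbb3* and *Ngfr* over both crosses, -0.29 and -0.20, become 0.20 and 0.29 when libraries are scaled to their totals.

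*Erbb3*, on the minus strand at chr10:128403392-128425811, encodes an ErbB receptor with little kinase activity of its own, which signals with Erbb2 when neuregulin binds. It was present in every library. ESCs measured 15.7 and 18.1 CPM in B/J and 41.0 and 21.0 CPM in J/B, and NPCs measured 33.9 and 33.7 CPM in B/J and 17.4 and 23.1 CPM in J/B. In B/J both NPC libraries lay above both ESC libraries, and in J/B the stages overlapped on CPM. Over both crosses the log2 fold change was -0.29 (SE 0.245, 95% interval -0.86 to 0.28, adjusted p = 0.316, edgeR quasi-likelihood) with TMM factors and 0.20 with library totals, and neither passed the test.

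Within the crosses *Erbb3* gave opposite signs. Within B/J, where 55.8% of all genes were called (30.1% higher, 25.6% lower) and the 8 genes gave 4 higher and 1 lower, its change was 0.53 (SE 0.348, adjusted p = 0.221, edgeR quasi-likelihood). Within J/B, where 54.5% of all genes were called (29.1% higher, 25.3% lower) and the 8 genes gave 4 higher and 2 lower, it was -1.11 (SE 0.351, adjusted p = 0.0287), and *Erbb3* was the second gene called lower. That call was lost with library totals (-0.61, adjusted p = 0.156) and with scaling to *Gapdh*, *Gusb* and *Tbp* (-0.31, adjusted p = 0.459), while the B/J change passed under these scalings (1.0, adjusted p = 0.0371, and 1.04, adjusted p = 0.0377). It was also lost without ESC J/B replicate 1 (-0.50, adjusted p = 0.216), the library with the highest *Erbb3* and the highest fibroblast sum of the ESCs, without NPC J/B replicate 1 (-0.95, adjusted p = 0.132) and without NPC J/B replicate 2 (-1.33, adjusted p = 0.0655). The part of other cells in that library was not tested. The interaction of stage and cross was -1.65 (SE 0.493, unadjusted p = 0.0108, adjusted p = 1.0, edgeR quasi-likelihood) and did not pass over all genes.

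Genes of the same signalling system were followed on a list of 10 neuregulin and other EGF-type ligands and ErbB receptors, of which 8 could be tested. Of these, 5 rose, none fell and 3 did not pass, a share called below the 69.4% of all genes, with a median log2 fold change of 2.0 beside 0.17 for all genes. *Erbb2*, the partner of Erbb3, measured 9.995 to 12.3 CPM in ESCs and 51.0 to 68.5 CPM in NPCs and rose by 2.03 (adjusted p = 3.95e-05, edgeR quasi-likelihood). *Egfr*, the EGF receptor, rose by 4.81, from at most 2.77 CPM to 39.1 to 85.0 CPM. *Erbb4*, a neuregulin receptor of neurons, had 0 counts in all ESC libraries and 2.99 to 30.5 CPM in NPCs, at least 536-fold higher on library totals and 385-fold with TMM factors, taking 3 counts over the ESC group. Among the ligands, *Nrg1*, the axonal signal for Schwann cell precursors, rose by 1.98 from 0.961 to 2.30 CPM in ESCs to 2.08 to 15.2 CPM in NPCs. *Nrg3* rose by 4.92 but stayed at 0.0974 to 2.65 CPM in NPCs, and its call was lost without NPC B/J replicate 2 (adjusted p = 0.0626) or NPC J/B replicate 2 (adjusted p = 0.0571). *Nrg2*, *Nrg4* and *Hbegf* did not pass, with changes of 1.29, 0.22 and 0.52. Without ESC J/B replicate 1, however, *Nrg2* (2.12, adjusted p = 0.0314) and *Hbegf* (1.29, adjusted p = 0.00795) were called, and they passed in 4 and 3 of 18 settings in all, among them scaling to *Gapdh*, *Gusb* and *Tbp* (adjusted p = 0.0349 and 0.0394). The ligand genes *Areg* and *Btc* were at or below 0.188 CPM in every library. *Erbb3* was thus the only receptor of the ErbB family without a call of higher expression in NPCs over both crosses.

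*Ngfr*, on the minus strand at chr11:95459638-95478561, encodes p75, the receptor that binds all neurotrophins with low affinity. ESCs measured 43.8 and 17.98 CPM in B/J and 22.5 and 24.7 CPM in J/B. NPCs measured 25.2 and 36.5 CPM in B/J and 35.8 and 34.4 CPM in J/B. ESC B/J replicate 1 was the highest of all 8 libraries, and the stages overlapped. The log2 fold change was -0.20 (SE 0.286, 95% interval -0.86 to 0.46, adjusted p = 0.550, edgeR quasi-likelihood), 0.29 with library totals and 0.22 without ESC B/J replicate 1, so its sign depended on the scaling and on 1 library. Within B/J the *Ngfr* change was -1.01 when ESC B/J replicate 2 was left out. That leaves replicate 1 as the only ESC library of that cross, so the spread in this fit comes from the other groups.

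The 12 neurotrophins and further receptors of the list were all tested, and 10 rose, none fell and 2 did not pass, beside 37.5% of all genes higher and 31.9% lower, with a median log2 fold change of 2.21. Trk receptors are the high-affinity partners of p75. *Ntrk2*, the receptor for BDNF, rose by 5.67 from 0.570 to 1.24 CPM in ESCs to 24.4 to 128 CPM in NPCs (adjusted p = 6.30e-05, edgeR quasi-likelihood). *Ntrk3*, the receptor for neurotrophin 3, rose by 3.18, to 4.58 to 27.7 CPM in NPCs. Of the co-receptors, *Sort1*, the sortilin gene, rose by 1.18, and *Rtn4r* and *Lingo1*, whose products join p75 in the Nogo receptor complex, rose by 3.22 and 3.40. The p75-binding proteins of *Maged1* and *Bex3*, the most abundant genes of the list, rose by 1.56 and 0.53. The ligand genes *Ntf3* and *Ntf5* rose by 4.63 and 1.94, whereas *Bdnf* changed by -0.01 (adjusted p = 0.983) and stayed at or below 3.32 CPM in every library.

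To compare levels between genes, CPM values were divided by the length of the gene's exons in kb. In ESCs the order was *Foxd3* (13.6 ± 4.5 CPM per kb, SD, n = 4), *Ngfr* (7.89 ± 3.30), *Erbb3* (3.79 ± 1.83), *Ets1* (0.280 ± 0.185), *Tfap2a* (0.209 ± 0.0743), *Sox10* (0.0981 ± 0.0889), *Pax3* (0.0452 ± 0.0318) and *Tfap2b* (0.00138 ± 0.00276). Neighbours in this order had overlapping libraries, with gaps between *Erbb3* and *Ets1* and, at 1 count in each nearest library, between *Pax3* and *Tfap2b*. ESCs thus held 3 of the 8 genes at levels well above the other 5.

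In NPCs the order of levels was *Tfap2b* (15.5 ± 10.8 CPM per kb, SD, n = 4), *Ngfr* (9.55 ± 1.52), *Tfap2a* (8.50 ± 4.30), *Erbb3* (4.29 ± 1.29), *Pax3* (4.27 ± 1.81), *Ets1* (3.67 ± 0.302), *Foxd3* (0.661 ± 0.258) and *Sox10* (0.285 ± 0.219). Only between *Ets1* and *Foxd3* did neighbours not overlap. The upper 6 genes therefore formed a range without a clear step, and *Foxd3* and *Sox10* lay below it.

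**Figure D3:**
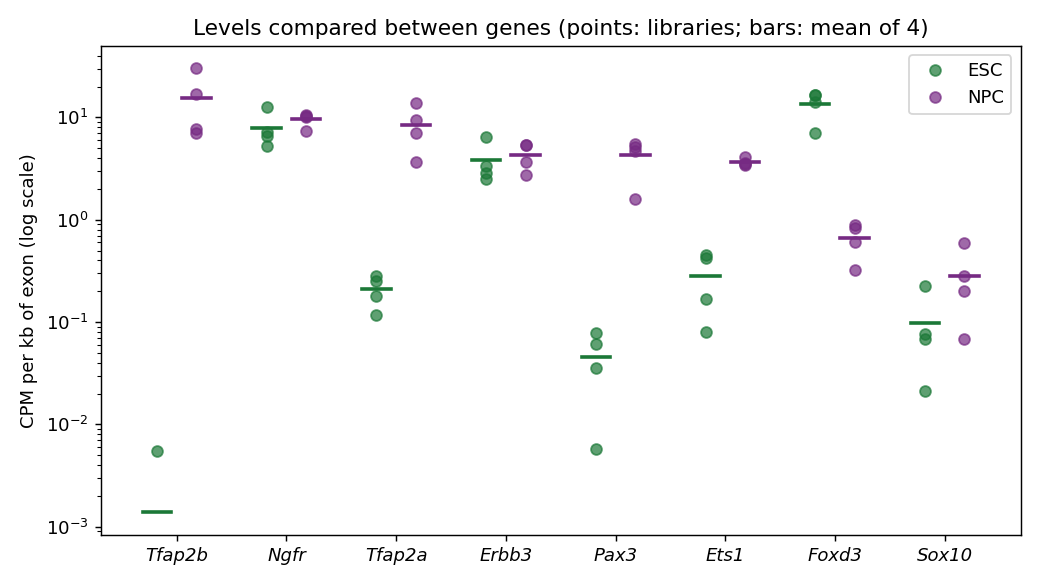
Levels of the 8 genes in CPM per kb of exon on a log scale, with green for ESCs, purple for NPCs, points for libraries and bars for the mean of 4, libraries at 0 not being drawn. In NPCs *Sox10* and *Foxd3* lie at 0.285 and 0.661 on average, below the other 6 genes at 3.67 to 15.5, and in ESCs *Foxd3*, *Ngfr* and *Erbb3* lead at 13.6, 7.89 and 3.79.

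The reciprocal crosses were compared because they exchange the parental origin of the B6 and JF1 alleles, although each is a single line, so that cross and line cannot be told apart. None of the 8 genes passed the test between J/B and B/J, in ESCs, where 0% of all genes were called by edgeR (346, or 2.11%, at an unadjusted p below 0.05, and 10 by DESeq2), or in NPCs, where 0.00610% were called (1050, or 6.40%, unadjusted, and 70 by DESeq2). At an unadjusted p below 0.05, 1 of the 8 passed in ESCs and none in NPCs. The ESC exception was *Erbb3*, 0.86 higher in J/B (SE 0.349, unadjusted p = 0.0410, adjusted p = 1.0), with both J/B libraries above both B/J libraries. In NPCs *Erbb3* was lower in J/B (log2 fold change -0.79, SE 0.348, unadjusted p = 0.0537, adjusted p = 0.770), again without overlap. For the other genes the 95% intervals were wide. *Tfap2a* in NPCs differed by 0.045 (95% interval -1.30 to 1.39), *Foxd3* in ESCs by 0.62 (-0.46 to 1.69), and *Pax3* in ESCs by 1.71 (-0.28 to 3.70), where it rests on 7 counts in B/J and 21 in J/B. The interaction of stage and cross was called for 0% of all genes by edgeR (573, or 3.49%, unadjusted, and 11 by DESeq2) and for none of the 8, with 1 of them, *Erbb3*, below an unadjusted p of 0.05. These fits had no block for replicate number. With a block within each stage, none of the 8 was called between the crosses in either stage.

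Other genes of the border and early crest gave the surroundings of the 8. On a list of 18, 12 rose, 2 fell and 4 did not pass, beside 69.4% of all genes called (37.5% higher, 31.9% lower), with a median log2 fold change of 2.56. *Zic1*, a zinc-finger factor of the border and the dorsal neural tube, rose by 8.82, from at most 0.415 CPM in ESCs to 101 to 375 CPM in NPCs (adjusted p = 2.04e-05, edgeR quasi-likelihood). *Ednrb*, the endothelin receptor of migrating crest that radial glia express too, rose by 9.17, from 0.0356 to 0.151 CPM to 26.6 to 67.0 CPM. *Gbx2* fell, and the 4 that did not pass were *Msx1*, *Id2*, *Rxrg* and *Tfap2c*, these names except the last being given after the values were seen. *Id2*, at 0.67, ran from 0.22 to 2.17 when single libraries were left out, and it was called without ESC J/B replicate 2 (adjusted p = 0.00934) and with a replicate block within each stage (1.20, adjusted p = 0.00837). A further paralogue with *Sox10*, *Sox9*, also named after its values were seen, rose from 0.0712 to 0.792 CPM in ESCs to 56.2 to 95.1 CPM in NPCs.

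Of 14 Schwann cell precursor and myelin genes 12 could be tested, and 8 rose, none fell and 4 did not pass, with a median of 2.55, and the share called was close to the 69.4% of all genes. Under a stricter filter of a mean of at least 1 CPM the count was 5. *Fabp7*, a lipid-binding protein of Schwann cell precursors and of radial glia, rose by 8.52 to 29.0 to 164 CPM in NPCs. *Gap43* and *L1cam*, which growing axons also express, rose by 3.25 and 3.28, and the myelin protein genes *Pmp22* and *Mbp* by 3.54 and 1.85. Genes more restricted to the lineage stayed low. *Cdh19* rose by 3.56 but reached only 0.546 to 2.04 CPM in NPCs, and *S100b*, at 0 counts in all ESC libraries, reached 0.260 to 0.673 CPM, at least 14.5-fold higher on library totals and 10.4-fold with TMM factors. *Mag* rose by 1.60 at an adjusted p of 0.0490 by edgeR's quasi-likelihood test, a call lost under 10 of the 17 settings in which it could be tested. *Pou3f1* and *Egr2*, factors of the promyelinating step, changed by 0.36 and 0.47 without passing, although *Egr2* was called with a replicate block within each stage (0.85, adjusted p = 0.0327), and *Gfra3* and *Dhh* were at or below 0.292 CPM and were not tested. The lineage name is used here for the genes and not for cells. *Sox10*, *Dhh* and *Gfra3* were below 2 CPM in all 8 libraries, while 8 of the 12 list genes tested rose. The presence of Schwann lineage cells was not tested.

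The other derivatives of the crest were looked at in the same way, and their counts too stand beside 69.4% of all genes called, 37.5% higher and 31.9% lower. Of 7 melanocyte genes 4 could be tested and all 4 fell, with a median of -2.31. They were *Kit*, *Mitf*, *Pmel* and *Mlana*, and ESCs already held them, at 73.2 to 146, 12.6 to 16.8, 6.92 to 32.3 and 0.438 to 1.06 CPM. *Kit* was still at 79.3 to 119 CPM in NPCs, and the presence of melanocytes was not tested. Their changes were -0.68, -1.41, -3.21 and -5.49, and the *Kit* call was lost in 7 of 18 settings. These were the scalings to library totals (-0.19) and to the 3 reference genes (-0.016) and the fits without ESC B/J replicate 1, ESC J/B replicate 1, NPC B/J replicate 1, NPC B/J replicate 2 or NPC J/B replicate 1 (adjusted p from 0.0592 to 0.126). The pigment enzyme genes *Dct*, *Tyr* and *Tyrp1* had 0 counts in all ESC libraries and at most 0.156 CPM in NPCs. Of 8 autonomic and enteric neuron genes 7 rose, with a median of 5.18. Among them *Th*, the tyrosine hydroxylase gene, rose by 7.43, from 6 counts over the ESC libraries to 5.06 to 17.9 CPM in NPCs. *Gata2* rose by 3.65 to 43.1 to 175 CPM. *Th* is also used by neurons of the central nervous system, and *Gata2* by trophoblast and blood. Of 7 sensory neuron genes 5 rose, with a median of 2.48. *Neurog2*, a proneural factor of sensory ganglia and of the cortex, rose by 8.89, from 5 counts over the ESC libraries to 10.5 to 55.7 CPM in NPCs.

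**Figure D4:**
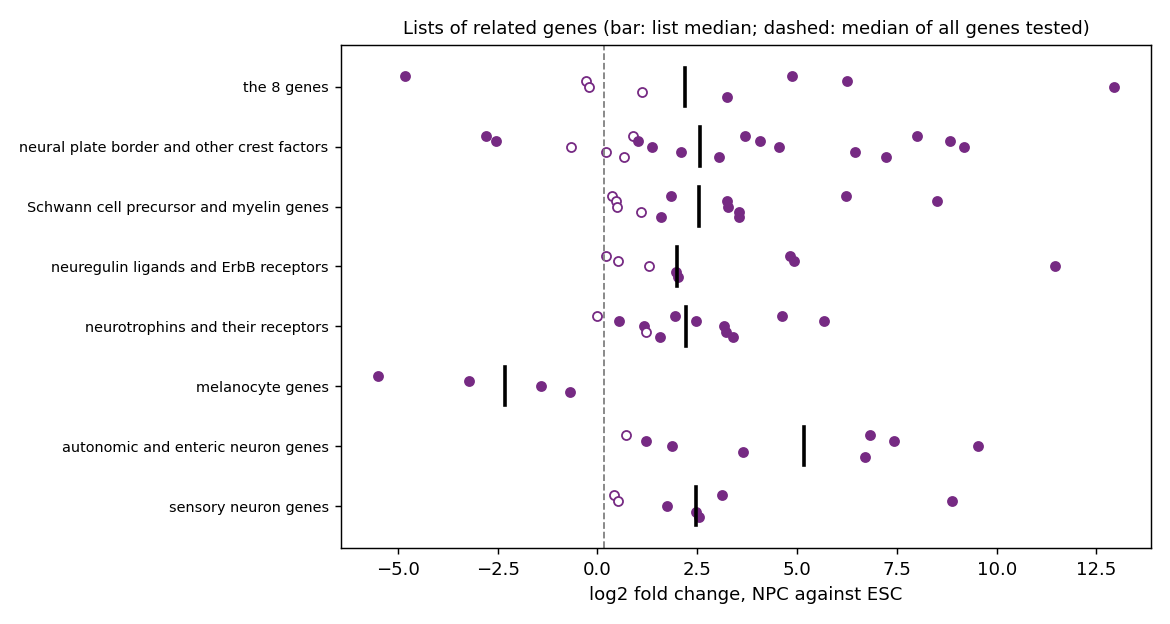
Log2 fold change of NPCs against ESCs for the 8 genes and 7 lists of related genes, with 1 point per gene, filled where the adjusted p is below 0.05, black bars for list medians and a dashed line for the median of all genes tested, 0.17. The 4 melanocyte genes tested lie below 0, with a median of -2.31, and the other lists have medians from 2.0 to 5.18. The farthest points on the right, *Tfap2b* and *Erbb4*, depend on the prior count. So do other points with few ESC counts, such as *S100b* with 0.

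Lists of cells that share single members with the crest are given beside them, to be read against the same shares of all genes. The 8 surface ectoderm genes, which go with *Tfap2a*, gave 6 higher and 1 lower. The lower count was 0 with scaling to *Gapdh*, *Gusb* and *Tbp*, and 2 with a block within each stage and without ESC J/B replicate 1, where *Epcam* passed (-0.81, adjusted p = 0.0418). In NPCs the list had *Krt8* and *Krt18*, the simple-epithelium keratins, at 568 to 1557 and 392 to 985 CPM, *Trp63* at 10.1 to 43.7 CPM and *Krt15*, which had 0 counts in all ESC libraries, at 5.29 to 20.2 CPM. The 10 trophoblast genes gave 8 higher and none lower, though the lower count did not stay at none without NPC J/B replicate 2. *Tpbpa* was at 0 counts in all ESC libraries and 171 to 450 CPM in NPCs. Of 8 dermomyotome and muscle genes, which go with *Pax3* and of which 7 were tested, 5 rose (3 under the filter of a mean of at least 1 CPM) and 1 fell, and besides *Pax3* itself *Lbx1*, also a factor of dorsal spinal neurons, reached 7.76 to 32.7 CPM and *Pax7* 2.30 to 18.1 CPM. Their sum overlapped between the stages, at 19.0 to 37.1 CPM in ESCs and 25.0 to 96.5 CPM in NPCs. Of 9 oligodendrocyte lineage genes, which go with *Sox10*, 8 were tested, 3 rose and 2 fell, with *Olig1* and *Olig2* lower by 4.23 and 2.33 and *Pdgfra*, also a gene of mesenchyme, higher by 5.96. Of the 10 fibroblast genes 9 rose and none fell, with *Col3a1* and *Col1a1*, which encode fibrillar collagens, at 524 to 1186 and 188 to 539 CPM in NPCs. The part of any of these cells in the changes of the 8 genes was not tested.

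NPC B/J replicate 1 had the highest trophoblast and surface ectoderm sums, 1123 and 2744 CPM, beside the lowest neural precursor sum. In that library *Pax3*, *Foxd3*, *Sox10*, *Tfap2b*, *Ets1* and *Ngfr* were each the lowest of the 4 NPC libraries, whereas *Erbb3* was the highest and *Tfap2a* was between the others. The fit without that library is among the alternatives given below, under all of which the 5 genes called over both crosses kept direction and call.

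The genes with the most similar profile were searched among all tested genes by Euclidean distance between log2 CPM values centred on each gene, over the 8 libraries, as a description without a test. Closest to *Pax3* were *Pax2* (distance 0.841), a paired-box gene of midbrain and kidney, and *Th* (1.17). Closest to *Tfap2b* were *Nr2f2* (1.41), a nuclear receptor gene at 0.0712 to 0.177 CPM in ESCs and 163 to 316 CPM in NPCs, and *Vtn* (1.45), the vitronectin gene, at 0 counts in ESCs. *Tfap2a* lay closest to *Ntm* (0.761) and *Prr16* (0.806), and *Ets1* to *Phlda1* (0.700) and *Lzts1* (0.709). *Foxd3* lay closest to *4930526L06Rik* (1.11) and *Etv5* (1.23), the latter an FGF-responsive ETS gene at 632 to 720 CPM in ESCs and 30.2 to 65.4 CPM in NPCs. *Sox10* lay closest to *Neb* (0.777), which was at or below 1.76 CPM in every library and, like it, was highest among ESCs in J/B replicate 1. *Erbb3* lay closest to *Saysd1* (0.677) and *Sik1* (0.762), and *Ngfr* to *Btbd11* (0.447) and *Osbpl7* (0.600). Among the 8 genes themselves the nearest pairs were *Erbb3* with *Ngfr* (2.0) and *Tfap2a* with *Ets1* (2.65), farther apart than each of the 8 genes from its closest genes named above.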

How the data were processed

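Polyadenylated RNA was sequenced on libraries made with 2 kits (TruSeq Stranded mRNA or NEBNext Ultra II) and run on 2 instruments (HiSeq4000 or NovaSeq 6000). The sources used here do not say which library had which. Reads were aligned by the authors with TopHat2 to mm39 masked at JF1 polymorphisms and kept at a mapping quality of at least 20. Per the labels' processing notes, which name HTSeq, DESeq2 and edgeR without a version, the deposited values are whole-number counts per gene, 1 table per sample. The 5 closing entries of each table (no feature, 5.76% to 10.9% of reads, ambiguous, 0.355% to 0.554%, and others) were left out.

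Tests were run with edgeR 4.0.16 (R 4.3.3), with filterByExpr at a minimum count of 10, TMM factors (0.820 to 0.885 in ESCs, 1.14 to 1.21 in NPCs) and a robust quasi-likelihood fit of the 4 group means. Stage was tested over both crosses and within each, followed by cross within each stage and their interaction, with Benjamini-Hochberg adjustment over 16399 genes at 0.05. CPM values use library totals, ± is SD, intervals of counts are exact Poisson limits at 95% and cover counting error only, and the limit for 0 is 3 counts. Replicates of a group differed by more than sampling noise (chi-square per degree of freedom 55.9 to 84.3). Alternatives were other scalings (RLE factors, the library totals alone, *Gapdh* with *Gusb* and *Tbp*), other tools (DESeq2 1.42.0, limma-voom from limma 3.58.1), other filters (none, or a mean CPM of at least 1), a fit that was not robust, the replicate number as a block, and 1 library left out at a time. Genes named are the 8, the 2 nearest in profile to each, and from each list the 3 most abundant and the 2 with the largest called change, with every gene of the Schwann, neuregulin and neurotrophin lists. The 8 genes and all lists were chosen with earlier results of these data known. Some genes of these lists are not reported here.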

Additional observations from a re-analysis of the deposited data

Results flagged for a closer look

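The stage effect on *Erbb3* went in opposite directions in the crosses on the TMM scale. Every NPC library lay above every ESC library in B/J, at 29.7 and 28.6 against 19.1 and 21.2 CPM, and below in J/B, at 14.6 and 19.2 against 49.2 and 23.7 CPM. The difference between the crosses, tested as an interaction, was -1.65 on the log2 scale (SE 0.493, unadjusted p = 0.0108, adjusted p = 1.0, edgeR quasi-likelihood), and it did not pass over all genes.

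*Tfap2b* in ESCs was singled out because 1 library lay apart from the other 3 by the whole range of the group, a ratio of gap to range of 1, beyond Dixon's 95% limit for 4 samples. That library, B/J replicate 2, held 1 count and the others 0. With 3 libraries at 0, any count in the remaining one gives this ratio, so it carries no rate of chance.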

How the results depend on the processing

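The 5 genes called over both crosses (*Foxd3*, *Tfap2a*, *Tfap2b*, *Pax3* and *Ets1*) kept direction and call under all 18 alternatives, with adjusted p at most 4.40e-04, 0.00130, 8.87e-04, 4.63e-04 and 0.00328, and log2 fold changes of -5.25 to -4.17 for *Foxd3*, 4.25 to 5.52 for *Tfap2a*, 5.78 to 7.12 for *Pax3* and 2.88 to 4.06 for *Ets1*. In all, 780 of the alternative values of the 8 genes kept direction and call and 33 changed sign, none of the latter called; the cause was not tested for these or for the changes below.

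Genes called lower among the 8 over both crosses numbered 1 to 2 when single libraries were left out (2 without ESC J/B replicate 2, when *Erbb3* passed at -0.50, adjusted p = 0.0485, edgeR quasi-likelihood), 1 to 2 within B/J, and 1 to 2 within J/B, where library totals and *Gapdh*, *Gusb* and *Tbp* scaling gave 1. Over both crosses *Erbb3* was 0.20 with library totals, 0.36 with scaling to the 3 genes and -0.50 to 0.017 without single libraries, and *Ngfr* 0.29, 0.44 and -0.46 to 0.22. Within B/J *Ngfr* was 0.055 with scaling to the 3 genes and -1.01 to 0.33 without single libraries, and within J/B *Sox10* was -0.032 to 2.07. Genes called within J/B, 8935, numbered 5700 without NPC J/B replicate 2 and up to 8475 without another library.

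For the interaction DESeq2 called 11 genes, and without single libraries values ran from -1.53 to 0.84 for *Sox10*, -0.97 to 0.45 for *Foxd3*, -0.85 to 1.02 for *Tfap2a*, -2.0 to 0.45 for *Ets1* and -0.24 to 1.11 for *Ngfr*. Between the crosses in ESCs DESeq2 called 10 genes and the unfiltered fit 2, and *Tfap2a* ran from -0.98 to 0.051, *Ets1* from -0.58 to 1.86 and *Ngfr* from -0.97 to 0.38. In NPCs the 1 gene called became 0 with library totals or the 3 genes, 70 with DESeq2, 5 unfiltered and 0 to 1 without single libraries, *Ets1* was 0.090 with scaling to the 3 genes, *Tfap2a* was -0.28 with limma-voom, and without single libraries *Tfap2a* ran from -1.20 to 0.68, *Foxd3* from -0.35 to 1.07, *Tfap2b* from -0.67 to 1.34 and *Ngfr* from -0.10 to 0.39.

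Samples with the same replicate number deviated together within a stage (correlation 0.518 in ESCs and 0.587 in NPCs) but not between stages (0.0489 to 0.0915). The main fit therefore did not pair them across stages. It also left out their shared deviation within a stage, which bears on the tests between the crosses. With the replicate block 12010 genes were called over both crosses against 11378, with the same calls among the 8 genes, 10100 within B/J, 9760 within J/B and 0 between the crosses in NPCs, where *Tfap2a* was -0.19. A block within each stage, added after seeing the data, gave 4 genes there and -0.23 for *Tfap2a*.

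Of 89 list genes, *Bdnf* changed sign with RLE factors (0.0035), library totals (0.45), the 3 genes (0.59), DESeq2 (0.0040), limma-voom (0.14), no filter (1.35e-04), a mean of at least 1 CPM (0.014), the block (0.15) and the block within each stage (0.18), *Epcam* with the 3 genes (0.047), and *Msx1* with limma-voom (0.019) and the block within each stage (0.076). Without single libraries *Bdnf* ran from -0.33 to 0.59, *Msx1* from -1.11 to 0.87, *Rxrg* from -0.13 to 0.96 and *Nrg4* from -0.11 to 0.48. *Sox10*, at 2 to 50 counts per library, and *Tfap2b* in ESCs are limited by depth.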
